A study of Homo sapiens with 94 samples.

Results

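Productive elongation was compared between HEK293 cells with and without an induced TET catalytic domain, over every one of the 3888 gene regions in the authors' deposited PRO-seq elongation table. The members were taken as the table gives them, all rows on the sense strand, out of 12616 regions in the deposited tables of initiation, elongation and divergent elongation read here. The cells were HEK293 T-Rex Flp-in, a human embryonic kidney line in which doxycycline switches on a single integrated construct. Here that construct was TET-CD-GFP, in which a TET catalytic domain is joined to green fluorescent protein, and both groups carried it. The treated group had received doxycycline at 1 µg/mL for 48 h and the other group was untreated, with 3 libraries each, 6 of the 94 samples of the series. A further 3 libraries of the same line, treated with 5-aza-2'-deoxycytidine (Aza) at 880 nM for 48 h, stood in the same table. PRO-cap libraries of the same 3 groups, also 3 each, measured initiation. Chicken DF-1 cells had been added to every nascent RNA sample as a spike-in, at a ratio given as 10:1. Total RNA was available for the same construct, again with 3 libraries a group, for its mutant form TETMut-CD-GFP in HEK293, and for TET-CD in the osteosarcoma line U2OS. In each of these, cells given doxycycline at 1 µg/mL for 48 h were compared with untreated cells of the same line. No PRO-seq library of the mutant was analysed here, so an effect of doxycycline itself cannot be told apart from that of TET-CD in nascent RNA.

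PRO-seq maps the 3' ends of RNA held by engaged RNA polymerase, and so reports where polymerases are transcribing rather than how much RNA has accumulated. After initiation, polymerase II commonly pauses a short way downstream of the start site, held by the factors NELF and DSIF, until the kinase P-TEFb, made of CDK9 and a cyclin T, releases it into the gene body. TET dioxygenases oxidise 5-methylcytosine to 5-hydroxymethylcytosine and further forms, and cytosine methylation at promoters is known for its association with silent genes.

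Changes with TET-CD were few and mostly modest, and they ran in both directions. Of the 3888 regions, 227 were called at an adjusted p below 0.05 in the authors' deposited table, which is 5.84% of all regions tested. Of these, 129 were higher (3.32% of all regions) and 98 were lower (2.52%). With 1 region kept for each gene symbol the counts were 129 and 81 of 3745 genes (3.44% and 2.16%). The median log2 fold change was 0.48 among the higher calls and -0.39 among the lower calls, and only 9 higher and 4 lower calls went past a log2 change of 1 in size. Over all regions the median was 0.00, with quartiles of -0.10 and 0.14, so the table as scaled by the authors showed no shift. How the spike-in entered that scaling is not given, so a change common to all genes was not tested.

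The table held means over libraries and fitted changes, not values of single libraries, so the spread of each gene is given as the standard error of its log2 fold change. The mean level of a region, its mean normalized count over the libraries, ran from 0.949 to 20343 with a median of 526. The median standard error was 0.51 in the 972 regions with the lowest levels and 0.064 in the 972 with the highest, and 7 of the former rose and 2 fell. Calls at low levels were therefore few and needed larger changes. Of 32 marker genes of kidney, neural, blood, fibroblast and endothelial cells, 5 had a region. Per kb of region, the kidney genes SIX2 and PAX2 had mean levels of 35.2 and 27.7, the neuronal gene INA 27.3, the fibroblast gene COL1A1 10.4 and the endothelial gene VWF 0.416, and the blood list had no region. TET1, a gene of the same dioxygenase family, had no region in the table, so induction of the construct could not be checked there.

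**Figure D1:**
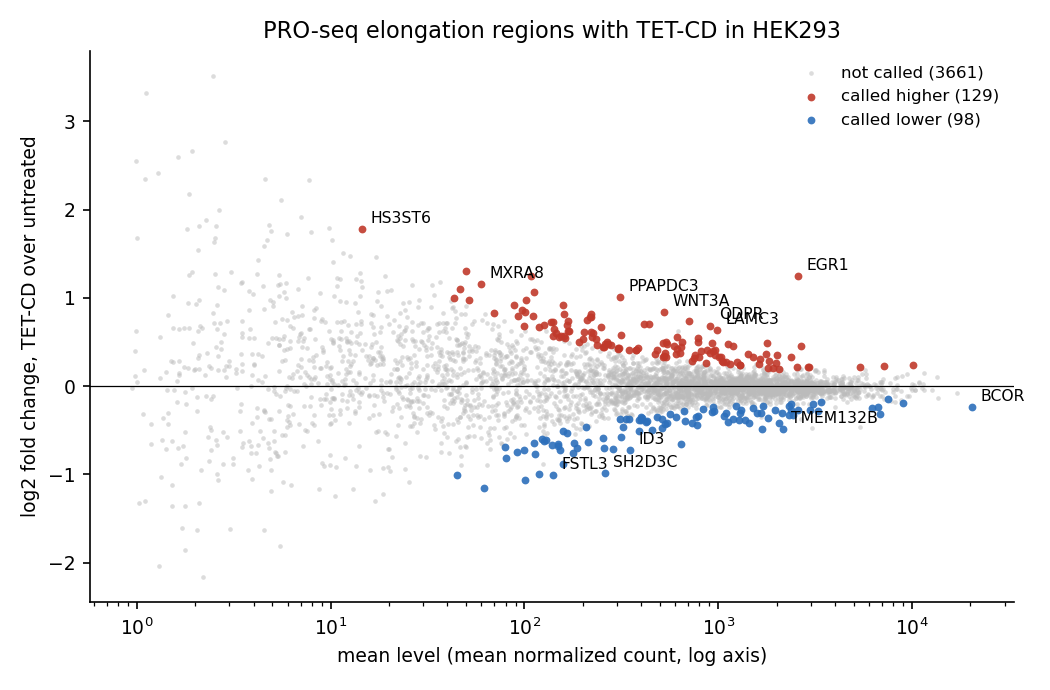
Log2 fold change of PRO-seq signal, TET-CD over untreated, against mean level (log axis) for the 3888 elongation regions, with regions called at an adjusted p below 0.05 in colour. The 129 higher and 98 lower calls lie on both sides of 0, and the highest, HS3ST6 at 1.78, has a mean level of only 14.6.

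QDPR (chr4:17479209-17513529, hg19, minus strand), which encodes dihydropteridine reductase, the enzyme that recycles tetrahydrobiopterin, had the smallest adjusted p in the authors' deposited table, with a log2 rise of 0.68 ± 0.08 (SE, 3 against 3; adjusted p = 4.6e-14). LAMC3, a laminin gamma chain of basement membranes, rose by 0.63 ± 0.08 (adjusted p = 1.7e-13) and FBLN1, the matrix glycoprotein fibulin, by 0.49 ± 0.07 in the authors' deposited table (adjusted p = 7.9e-11). WNT3A (chr1:228194941-228230891, plus strand), a secreted WNT ligand, rose by 0.84 ± 0.11 (adjusted p = 6e-12), and PPAPDC3, a member of the phosphatidic acid phosphatase family, by 1.00 ± 0.13 (adjusted p = 8.6e-12), per the authors' deposited table. These 5 genes had the smallest adjusted p among the higher calls, and each change was over 7 times its standard error.

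Among called regions at or above the median level, EGR1 rose the most. Its region was chr5:137801321-137803728 on the plus strand. The gene encodes a zinc finger transcription factor of the immediate early response, and its change was 1.24 ± 0.19 in the authors' deposited table (adjusted p = 4.2e-08, mean level 2577). PGF, placental growth factor, rose by 0.74 ± 0.11 in the authors' deposited table, and FAM114A1 by 0.55 ± 0.10. KNDC1 (0.55 ± 0.10), the focal adhesion protein gene TNS3 (0.50 ± 0.09) and HTRA1, a secreted serine protease (0.50 ± 0.10), followed in the authors' deposited table. ALX4, a homeobox factor of craniofacial development (0.50 ± 0.11), and ATP2B3, a plasma membrane calcium pump (0.48 ± 0.08), completed the 12 largest rises at that level in the authors' deposited table. The 11 genes after EGR1 thus spanned log2 changes from 0.48 to 0.84, and neighbours in this order differed by less than the sum of their standard errors.

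Below the median level the changes were larger and their errors wider. HS3ST6, a heparan sulfate sulfotransferase gene, stood highest at 1.78 ± 0.58 on a mean level of only 14.6 in the authors' deposited table (adjusted p = 0.042). C1orf222 (1.31 ± 0.31), the matrix-remodelling-associated gene MXRA8 (1.16 ± 0.29), the potassium channel gene KCNK6 (1.09 ± 0.33) and MFSD4 (1.06 ± 0.24) followed in the authors' deposited table, on mean levels from 46.4 to 112.

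FSTL3, a secreted antagonist of activin, fell by 1.01 ± 0.18 on the log2 scale (adjusted p = 4.1e-06), and SH2D3C, an adaptor protein gene, fell by 0.98 ± 0.16 (adjusted p = 2.2e-07), both in the authors' deposited table and both below the median level. ID3 (chr1:23885035-23885769, minus strand), an inhibitor of basic helix-loop-helix factors, fell by 0.73 ± 0.12 in the authors' deposited table (adjusted p = 9e-07). The smallest adjusted p among the falls belonged to KB-1732A1.1, a transcript known only by a clone name, which fell by 0.65 ± 0.10 in the authors' deposited table (adjusted p = 4.2e-08). TMEM132B, a transmembrane protein gene with a region of 317 kb, fell by 0.49 ± 0.08 in the authors' deposited table (adjusted p = 1.9e-07).

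At or above the median level, the 12 largest falls of genes with no clone name included TMEM132B, CEBPB, a leucine zipper factor (-0.49 ± 0.16), the serine/threonine kinase gene PIM1 (-0.44 ± 0.09), the neural transcription factor gene POU3F2 (-0.42 ± 0.12) and the ubiquitin ligase gene RNF187 (-0.42 ± 0.09) in the authors' deposited table. The zinc finger genes ZBTB14 (-0.41 ± 0.09) and ZBTB7C (-0.38 ± 0.09), the nuclear receptor gene NR4A2 (-0.41 ± 0.09), the forkhead factor gene FOXQ1 (-0.39 ± 0.10), MAT2B, a regulatory subunit of methionine adenosyltransferase (-0.38 ± 0.07), and BBC3, the apoptotic protein PUMA (-0.38 ± 0.10), were also among them in the authors' deposited table. ZIC2, a zinc finger factor of the developing brain, completed these 12 with a short upstream region of 409 bases at -0.43 ± 0.10 in the authors' deposited table. Its longer downstream region, of 3.06 kb, stood at -0.18 ± 0.06 and was not called in the authors' deposited table (adjusted p = 0.057). The region with the largest mean count, 20343, was BCOR, a corepressor gene of polycomb complexes, and it fell by 0.24 ± 0.05 in the authors' deposited table (adjusted p = 2.8e-05).

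The sequence just upstream of the annotated start is shown for 4 of these genes, 3 that rose and ID3, which fell. Each is the 250 bases before the RefSeq start on GRCh38.p14, written 5' to 3' on the gene's strand. In QDPR, WNT3A and ID3 the capitals mark CG, the dinucleotide at which cytosine methylation and its oxidation by TET enzymes mainly occur in human DNA. In EGR1 they mark CArG boxes, the 10-base elements bound by serum response factor.
QDPR, chr4:17512091-17512340, minus strand: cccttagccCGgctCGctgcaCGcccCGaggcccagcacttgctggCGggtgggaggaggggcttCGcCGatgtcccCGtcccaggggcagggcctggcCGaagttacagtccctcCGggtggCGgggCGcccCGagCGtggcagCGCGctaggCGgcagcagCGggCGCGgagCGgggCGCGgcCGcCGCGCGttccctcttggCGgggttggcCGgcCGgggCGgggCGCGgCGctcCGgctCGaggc
WNT3A, chr1:228006748-228006997, plus strand: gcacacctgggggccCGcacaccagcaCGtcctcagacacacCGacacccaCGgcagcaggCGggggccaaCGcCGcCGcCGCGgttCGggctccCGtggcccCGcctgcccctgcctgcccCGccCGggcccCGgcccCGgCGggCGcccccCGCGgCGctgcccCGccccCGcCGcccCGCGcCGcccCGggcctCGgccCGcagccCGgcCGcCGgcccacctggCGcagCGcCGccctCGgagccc
EGR1, chr5:138465229-138465478, plus strand: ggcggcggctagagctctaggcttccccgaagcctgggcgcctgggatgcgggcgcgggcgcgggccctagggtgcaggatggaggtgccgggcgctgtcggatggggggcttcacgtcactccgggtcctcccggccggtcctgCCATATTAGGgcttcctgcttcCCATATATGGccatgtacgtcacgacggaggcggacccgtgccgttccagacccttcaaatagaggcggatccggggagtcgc
ID3, chr1:23559502-23559751, minus strand: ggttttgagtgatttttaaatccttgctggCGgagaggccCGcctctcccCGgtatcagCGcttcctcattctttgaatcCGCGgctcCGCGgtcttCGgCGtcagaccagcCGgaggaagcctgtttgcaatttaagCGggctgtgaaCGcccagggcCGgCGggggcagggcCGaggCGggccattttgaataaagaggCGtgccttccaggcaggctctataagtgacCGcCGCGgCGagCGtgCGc
QDPR held 36 CG dinucleotides, WNT3A 38, EGR1 25 and ID3 24, against a median of 11 and quartiles of 3 and 23 over 35116 RefSeq promoters of that length. Those promoters include genes with no elongation region, and unchanged genes of the elongation table were not counted apart. Whether changed genes are richer in CG than unchanged ones was therefore not tested. At least 1 CG (letters CG, which read the same on both strands) was present in 93.9% of them. EGR1 held 2 CArG boxes, and 1.16% of all promoters held at least 1, searched on both strands, which are equivalent for this element. These starts were not matched to the PRO-cap start sites, which are on hg19, and 68.8% of called regions with a symbol matched a promoter, too few for a count of CG over the calls.

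Related genes are grouped here by families picked after their values were seen, so the counts are a description, to be read against 3.44% higher and 2.16% lower calls among all 3745 genes. Fibulins and HTRA proteases are separate families that were counted together. Of 6 such genes with a region, 5 rose, among them FBLN7 (0.91 ± 0.17), EFEMP1 (0.44 ± 0.14) and HTRA3 (0.35 ± 0.09) in the authors' deposited table, and 0 fell. Of 10 collagen genes 3 rose in the authors' deposited table, namely COL1A1, the 1 fibroblast marker of 6 with a region (0.80 ± 0.22), COL6A1 (0.48 ± 0.10) and COL9A2 (0.41 ± 0.13). Of 64 solute carrier genes, membrane transporters of small molecules, 8 rose and 0 fell, with SLC38A3 highest among the calls at 0.73 ± 0.19 in the authors' deposited table. Potassium channel genes gave 3 rises and 0 falls among 24, against medians of 0.12 for that family and 0.01 for all genes.

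The 3 ID and HES genes with a region, which restrain basic helix-loop-helix factors, all fell: ID3 as given above, ID1 by 0.35 ± 0.11 and HES1, a NOTCH target, by 0.30 ± 0.07 in the authors' deposited table. Their regions were short, at 0.735 kb for ID3, 0.657 kb for ID1 and 1.57 kb for HES1. Of all regions of at most 1 kb 8.70% fell, and of those of 1 to 2 kb 6.33%. Whether these falls go beyond those of other short regions was not tested. Both PIM kinase genes with a region fell, with PIM3 at -0.27 ± 0.07 beside PIM1, in regions of 1.91 kb for PIM3 and 3.31 kb for PIM1. Of 12 forkhead genes 1 was called, FOXQ1, and of 3 SOX genes 0 were called. Genes grouped as translation factors by symbol alone, not by function, gave 3 rises among 10. They were EEF2 (0.23 ± 0.06), EEF1A2 (0.33 ± 0.11) and EIF4A3 (0.26 ± 0.08) in the authors' deposited table.

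Among 22 lists of pathways and functions, 7 held a called gene, and over all genes 3.44% were higher and 2.16% lower. Most lists with a call held 1, too few to set apart from those shares. Of 41 pausing and elongation factors 6 had a region, and 1 was called: CDK9, the kinase of P-TEFb, fell by 0.39 ± 0.11 in the authors' deposited table (adjusted p = 0.013). CCNT1, its cyclin partner, stood at -0.04 ± 0.06, and NELFB, a subunit of the pausing factor NELF, at 0.02 ± 0.06 in the authors' deposited table. RTF1 (-0.07 ± 0.07) and CTR9 (0.07 ± 0.10), subunits of the PAF complex, and the elongation kinase gene CDK12 (-0.06 ± 0.05) were not called in the authors' deposited table either.

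Of 13 immediate early genes 1 rose and 2 fell, which are EGR1 and, in the other direction, NR4A2 and JUND, a subunit of the factor AP-1 (-0.28 ± 0.08 in the authors' deposited table). FOS, another AP-1 subunit, stood at 0.33 ± 0.14 (adjusted p = 0.14) in the authors' deposited table. The list median was -0.08 against 0.01 for all genes. The p53 targets gave 1 rise and 1 fall among 11, in the nuclease gene AEN (0.22 ± 0.06) and BBC3. The integrated stress response gave 1 fall among 13 (CEBPB), and all 13 members had log2 changes below 0, with a median of -0.13 against 0.01 for all genes. Only 2 of the 13 had an unadjusted p below 0.05, which 16.6% of all genes had. RPS19 (0.24 ± 0.06 in the authors' deposited table) was the single call among 22 cytosolic ribosomal protein genes, EEF2 among 5 housekeeping genes, and HOXD13 (-0.37 ± 0.12), the single HOX gene with a region, fell.

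The genes that act on methylated cytosine gave 0 calls among 7 with a region in the DESeq2-type table, and 3 had an unadjusted p below 0.05, a value that 16.6% of all genes reached. DNMT3B, a de novo DNA methyltransferase, stood highest at 0.20 ± 0.07 (adjusted p = 0.071) and GADD45G lowest at -0.43 ± 0.18 (adjusted p = 0.17), while DNMT3A (-0.04 ± 0.06), TET3 (-0.07 ± 0.07) and MBD2 (0.02 ± 0.07) lay near 0 in the authors' deposited table. No member was called among 2 RNA polymerase II subunits, 13 initiation factors and Mediator subunits, 13 nuclear oxidative phosphorylation genes, 2 histone genes, 10 heat shock, 3 cholesterol synthesis, 5 interferon response, 7 S phase, 11 G2 and M phase, 4 imprinted, 4 germline, 3 epithelial and 5 neuronal genes. Over these lists and the cytosine methylation genes, 8 of 89 genes had an unadjusted p below 0.05. These lists were put together because they held no called gene. The 16.6% of all genes includes called genes, so that count cannot be set against it. The list of very long genes had 0 members in the table.

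Falls lay in shorter regions than rises. The median length was 24.7 kb for regions that rose, 2.75 kb for regions that fell and 15.2 kb for the whole table. Of 322 regions of at most 1 kb, 28 fell and 1 rose, and their median log2 change was -0.26 with quartiles of -0.47 and 0.03. In regions of 1 to 2 kb the counts were 14 falls and 1 rise among 221, and in regions of 2 to 5 kb 18 falls and 9 rises among 424. From 5 to 20 kb the order turned, with 45 rises and 22 falls among 1304, and above 50 kb 32 rose and 7 fell among 693. The median was -0.04 in regions of 1 to 2 kb, and in the bins above 2 kb the medians lay between -0.01 and 0.03. Regions of at most 1 kb had a low median level, 38.1, and a median standard error per region of 0.34, and 83 of the 322 had a log2 change above 0. The lower medians of short regions were not particular to TET-CD. With Aza, against the same untreated libraries, the median was -0.35 up to 1 kb, -0.18 from 1 to 2 kb and -0.16 from 2 to 5 kb. In the longer bins the Aza medians lay between 0.02 and 0.04. The part of the shared untreated libraries in this was not tested. By level per kb, falls lay in dense regions: of the 972 regions with the highest level per kb, 76 fell and 10 rose, and of the 972 with the lowest, 5 fell and 32 rose.

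**Figure D2:**
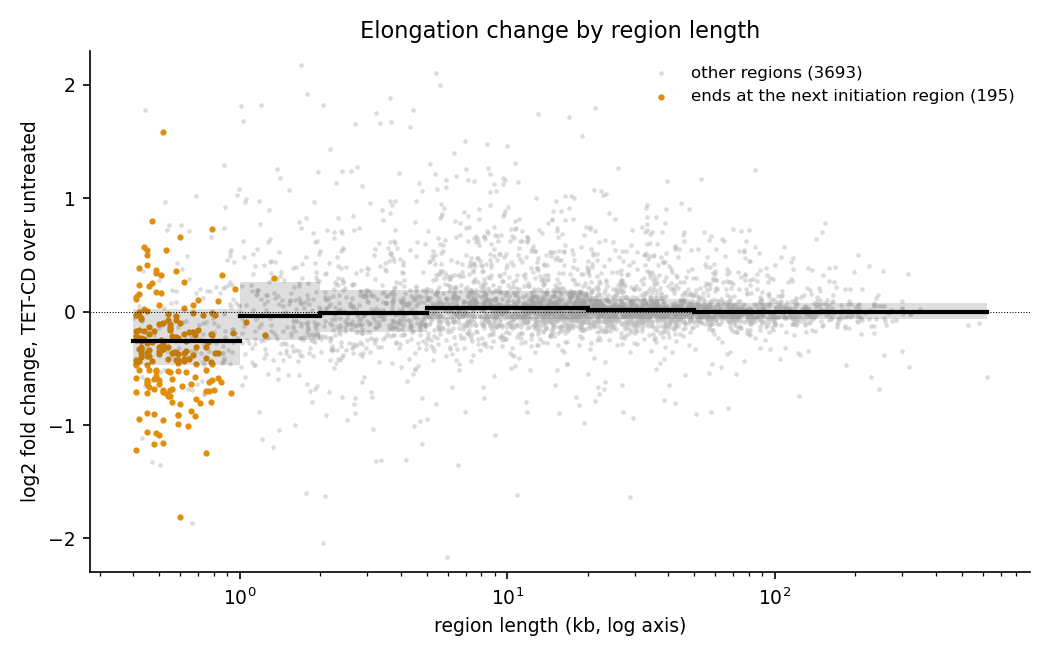
Log2 fold change with TET-CD against region length (log axis) for the elongation regions, with black lines at the median and grey bands at the quartiles of 6 length bins. The 10 regions beyond 2.3 in size are not shown. The bin of at most 1 kb has its median at -0.26, while the bins above 2 kb stay between -0.01 and 0.03.

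Many of the short regions were segments between successive start sites. Of the 3888 regions, 3860 began 51 bases after the end of a PRO-cap initiation region on the same strand, and 195 ended at the base before another one. These 195 segments had a median log2 change of -0.34 (quartiles -0.59 and -0.10), with 24 falls and 1 rise, against 0.01 with 74 falls and 128 rises in the other 3693 regions. In 98 segments at or above the segments' median level, 93 had a log2 change below 0. The 130 other regions of at most 1 kb gave 4 falls and 0 rises with a median of -0.14.

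For 156 of the segments the table also held the region that begins after the next start site, under the same gene symbol in 124 cases. The segment had the lower log2 change in 132 of the 156, with a median difference of -0.34 (quartiles -0.56 and -0.12). The regions downstream had a median of -0.01, and 21 of the 156 segments fell and 1 rose. SRRM1, a splicing coactivator gene, had a segment of 519 bases (chr1:24969261-24969779, plus strand) at -1.16 ± 0.26 and a downstream region at 0.02 ± 0.06 in the authors' deposited table. AMD1, an enzyme of polyamine synthesis, showed -0.72 ± 0.22 and 0.09 ± 0.07, and CBX6, a polycomb protein gene, -0.70 ± 0.16 and -0.00 ± 0.05 in the authors' deposited table. KLF12 (-0.59 ± 0.14 and 0.02 ± 0.06), the kinesin gene KIF1A (-0.64 ± 0.20 and -0.01 ± 0.06) and the pseudokinase gene TRIB1 (-0.77 ± 0.20 and -0.06 ± 0.06) had the same form in the authors' deposited table.

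Of the 21 segments that fell and had a downstream region, 2 had a downstream fall too: the adaptor gene SHC2 (-0.81 ± 0.23 and -0.36 ± 0.08) and the segment before PIM1 (-1.01 ± 0.34 and -0.44 ± 0.09), per the authors' deposited table. A segment that carries no gene name, before IRF2BP1, went the other way at 0.50 ± 0.17. Initiation at the start site of the segments had a median log2 change of -0.13 and at the next start site 0.02. With Aza, against the same untreated libraries, the medians of segments and downstream regions were -0.41 and -0.02. The untreated libraries are shared between these comparisons, and segments had lower mean counts than downstream regions (medians 46.8 and 699). The part of count depth or of the untreated libraries in the segments' fall was not tested.

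**Figure D3:**
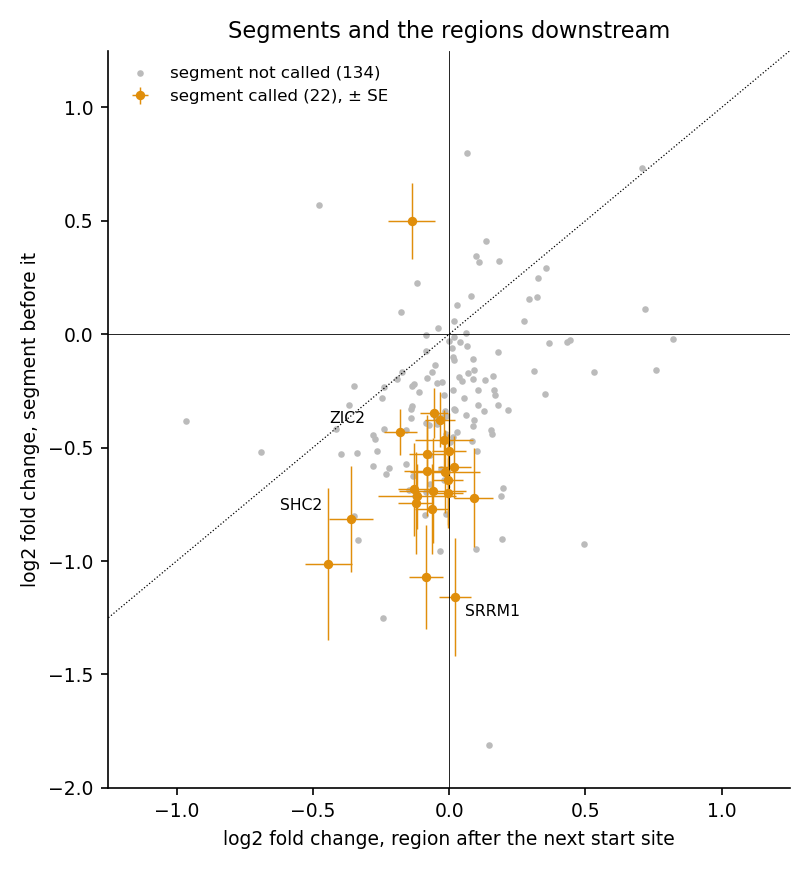
Log2 fold change of 156 segments that end at another initiation region, against that of the region after it, with bars of ± SE for the 22 called segments and a dotted line of equality. The 2 pairs beyond the axes are not shown. In 132 pairs the point lies below the line, and the regions after the called segments lie between -0.18 and 0.09 except SHC2 and PIM1.

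Whether the start sites changed with the bodies was read from the separate PRO-cap libraries. At the start sites of the 129 regions that rose, initiation was called higher in 24 and lower in 1, against 2.51% and 2.46% of all 3860 paired regions. The direction of initiation was the same in 113 of 129, with a median of 0.30. Of the 98 regions that fell, initiation was called lower in 8 and higher in 0, and its direction was the same in 75, with a median of -0.23. Initiation rose along with elongation at WNT3A (0.66 ± 0.14), PPAPDC3 (1.20 ± 0.29), EGR1 (0.68 ± 0.11) and the cathepsin gene CTSH (0.57 ± 0.15, beside 0.78 ± 0.15 in elongation) in the authors' deposited table. At QDPR (0.29 ± 0.13, adjusted p = 0.22) and LAMC3 (0.44 ± 0.17, adjusted p = 0.14) initiation was not called in the authors' deposited table. Across the 3860 pairs the changes had a Pearson correlation of 0.42 and a Spearman correlation of 0.43, and across 1471 pairs at or above both median levels 0.31 and 0.30. Pairs share the treatment but not libraries.

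The difference between the elongation and initiation changes was tested by a two-sided z-test with Benjamini-Hochberg adjustment, and 31 of 3860 regions (0.803%) passed. In 16 the elongation change was the higher. In 13 of these 16 initiation fell in the authors' deposited table, and in 4 elongation rose. NELFB was one, with initiation at -0.70 ± 0.14 and elongation at 0.02 ± 0.06 in the authors' deposited table (difference 0.73 ± 0.16, adjusted p = 0.0027). LSM12 (difference 1.08 ± 0.21), the kinase genes STK38 (1.09 ± 0.29) and RPS6KA1 (0.92 ± 0.18), and ALAD, an enzyme of haem synthesis (1.00 ± 0.25), had the same form. HPCAL1 (chr2:10443191-10526166, plus strand), a neuronal calcium sensor, was the single gene with a fall in initiation (-1.10 ± 0.34) and a rise in elongation (0.29 ± 0.08) in the authors' deposited table, and its difference was the largest, 1.39 ± 0.35 (adjusted p = 0.022). PANX2, a pannexin channel gene, rose in elongation by 0.67 ± 0.16 with initiation at -0.20 ± 0.14 in the authors' deposited table (difference 0.87 ± 0.21).

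In the other 15 the elongation change was the lower. In 9 of them elongation fell, and in 5 initiation rose. BCKDK, a kinase of branched-chain amino acid breakdown, had elongation at -0.51 ± 0.12 and initiation at 0.68 ± 0.23 in the authors' deposited table (difference -1.18 ± 0.25, adjusted p = 0.0027). ID3 (difference -0.71 ± 0.17), ID1 (-0.70 ± 0.20), HES1 (-0.46 ± 0.12), the homeobox gene MSX1 (-0.46 ± 0.13), the neuroendocrine factor gene INSM1 (-0.43 ± 0.11) and TMEM132B (-0.50 ± 0.14) fell in elongation with initiation not called. ARF6, a small GTPase gene, rose in initiation by 0.66 ± 0.20 with elongation at -0.24 ± 0.12 in the authors' deposited table (difference -0.90 ± 0.23). CHRAC1, a histone-fold protein gene, passed on a segment of 499 bases (difference -0.84 ± 0.24). RP11-501J20.2, a transcript known only by a clone name, had the largest difference of this direction, -1.56 ± 0.22, from a rise in initiation of 1.50 ± 0.19 in the authors' deposited table. The median region length was 2.66 kb in these 15 and 24.3 kb in the 16.

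**Figure D4:**
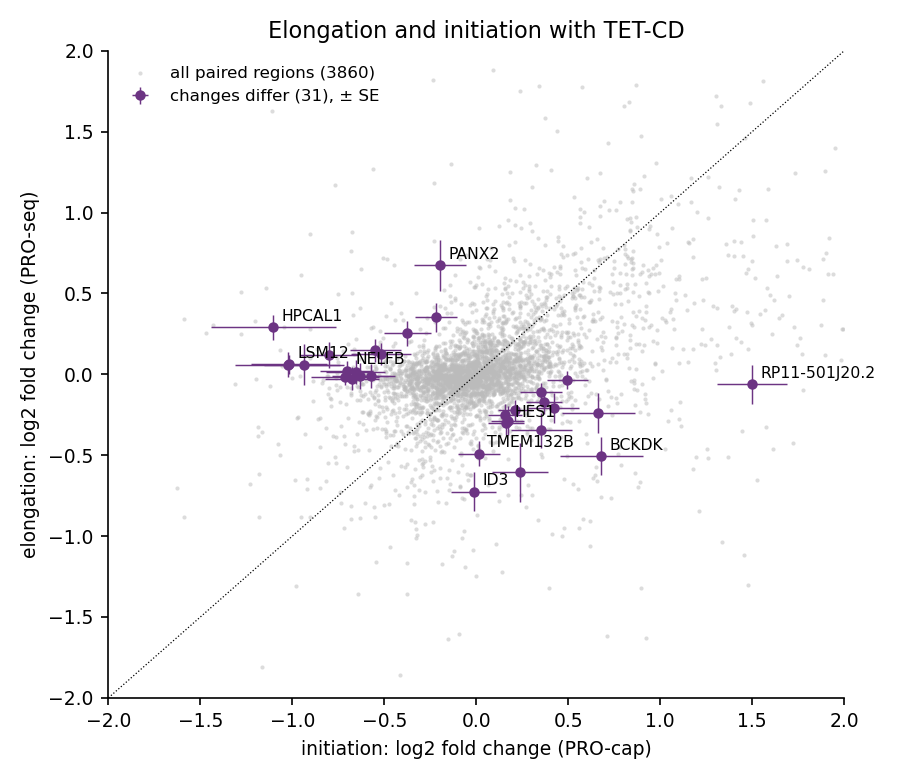
Elongation (PRO-seq) against initiation (PRO-cap) as log2 fold changes with TET-CD for 3860 paired regions, with bars of ± SE for the 31 whose changes differ and a dotted line of equality. The 54 pairs beyond 2 in size are not shown. Of the 31, 16 lie above the line, most with initiation below 0 and elongation near it, and 15 lie below.

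Some of the rises in elongation were also called in total RNA. Of 122 genes that rose in elongation and were tested in total RNA with TET-CD in HEK293, 15 were called higher and 0 lower, against 0.899% and 0.233% of all 3004 genes of the elongation table tested there. Of 70 genes that fell in elongation, 0 were called in total RNA in the deposited DESeq2-type table. With 0.233% of all genes called lower there, that 0 does not set the falls apart from all genes. Of the 70, 10 had an unadjusted p below 0.05. Among the 122 that rose 51 did, and among all genes tested 9.32%. The 15 were MXRA8, PPAPDC3, CTSH, WNT3A, EFEMP1, LAMC3, ALX4, PGF, CPT1A, NES, FAM114A1, MYOM2, EFCAB4B, FAM78A and COL6A1. The total RNA values are shrunken toward 0 and cannot be set against the nascent values in size. MXRA8 rose by 1.08 ± 0.27, PPAPDC3 by 0.90 ± 0.24 and CTSH by 0.67 ± 0.15 in total RNA in the authors' deposited table. EGR1 stood at 0.00 ± 0.03 in total RNA, and FBLN1 at 0.01 ± 0.03, in the authors' deposited table, and neither was called there.

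Read the other way, 27 genes of the elongation table were called higher in total RNA, and their median elongation change was 0.44. That change was above 0 in 26 of them, and the other one was ZCCHC12 (-0.11 in elongation). GSTP1, a glutathione transferase gene, was higher in total RNA (0.33 ± 0.04) with an elongation change of 0.22 that was not called (adjusted p = 0.64), and TMEM155 (0.90 ± 0.33 in total RNA) stood at 0.97 ± 0.39 in elongation (adjusted p = 0.12), in the authors' deposited table. The 7 genes called lower in total RNA all had elongation changes below 0, with a median of -0.11 and 0 calls. They included SKI, a corepressor of SMAD signalling, and NDRG1, and in SKI initiation was called higher (0.35 ± 0.11).

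With the mutant TETMut-CD, 0 of 124 genes that rose in elongation and 0 of 70 that fell were called in total RNA (0% of 3195), in the deposited DESeq2-type table; 4 and 2 of them had an unadjusted p below 0.05, which 2.35% of all genes tested had. The difference between TET-CD and its mutant was not tested. In U2OS with TET-CD, 13 of 122 genes that rose in elongation were higher in total RNA and 13 lower, against 6.95% and 5.91% of all 2994, and PGF (0.83) and ALX4 (1.36) were among those higher while COL6A1 (-0.11) was lower in the authors' deposited table. Of 66 genes that fell in elongation 8 were higher and 5 lower there.

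**Figure D5:**
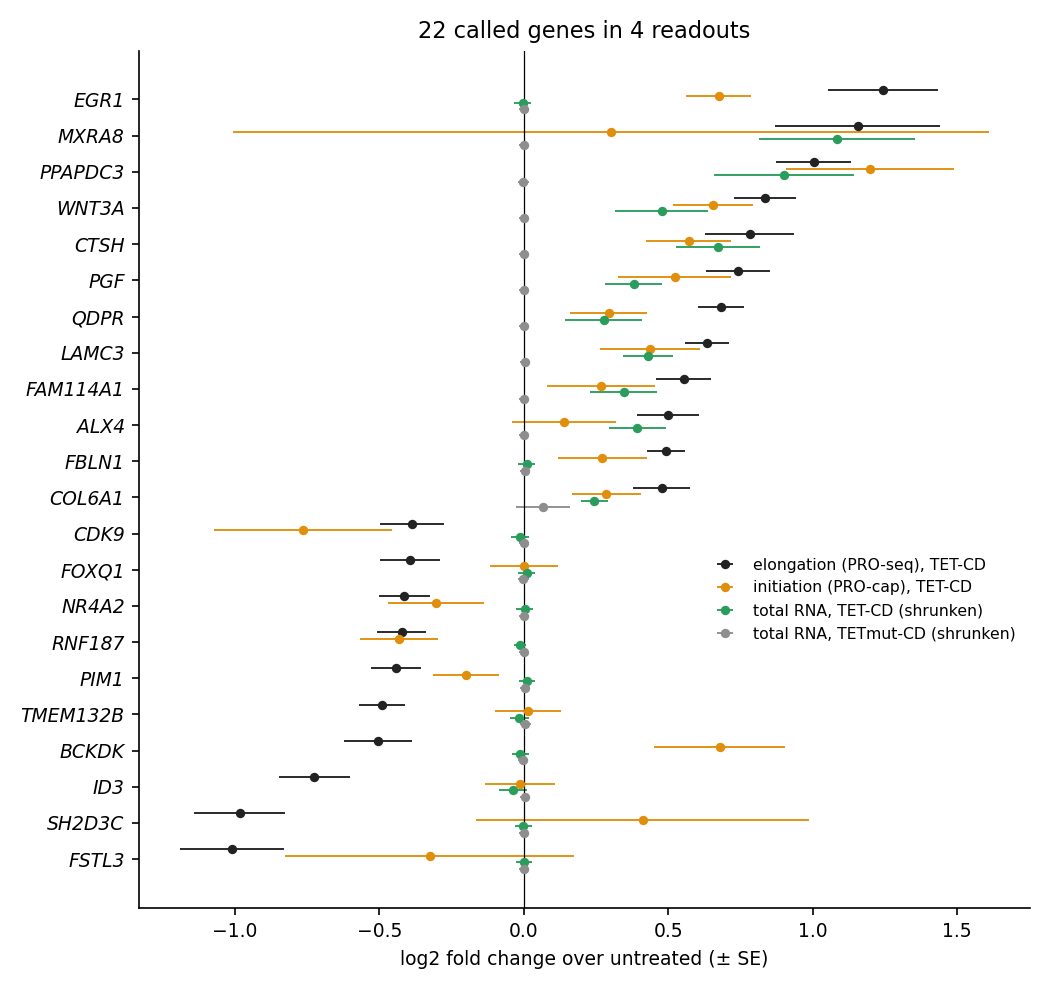
Log2 fold change with ± SE of 22 genes called in elongation, in PRO-seq, PRO-cap and total RNA with TET-CD and in total RNA with TETmut-CD; total RNA values are shrunken. The 22 genes were picked by hand, and many of those that rose are among the genes also called higher in total RNA. Among the genes shown, initiation and total RNA lie mostly above 0 for those that rose. Those shown that fell have total RNA near 0. Of all 122 genes that rose and were tested in total RNA with TET-CD, 15 were called higher there. Of all 3004 genes tested in total RNA with TET-CD, 0.233% were called lower.

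Aza, a cytidine analogue that depletes DNA methylation by trapping DNA methyltransferases, was set beside TET-CD through the authors' direct comparison of the treated groups. Of 3888 regions, 129 (3.32%) differed, 59 with the higher level in Aza and 70 with the higher level in TET-CD. Against untreated cells Aza gave 588 calls (15.1%). Of the 129 regions that rose with TET-CD, 16 differed from Aza, 11 of them higher in TET-CD. The libraries that picked these regions also enter the direct comparison, so these counts depend in part on that choice. WNT3A rose by 0.84 ± 0.11 with TET-CD and stood at 0.22 ± 0.11 with Aza (direct difference, Aza minus TET-CD, -0.62; adjusted p = 1.5e-06) in the authors' deposited table. HTRA1 (0.50 and 0.03), TERT, the telomerase catalytic subunit (0.53 and -0.04), SMOC2, a matrix calcium-binding protein (0.78 and 0.15), ATP2B3 (0.48 and 0.09), RGCC (0.60 and 0.11) and LAMC3 (0.63 and 0.31) had the same order, with TET-CD given first, in the authors' deposited table. EGR1 went the other way, at 1.24 ± 0.19 with TET-CD and 2.60 ± 0.19 with Aza (direct difference 1.36; adjusted p = 6.8e-10), as did AEN (0.22 and 0.57), DYNC1I1 (0.40 and 0.77) and EPPK1 (0.46 and 0.81) in the authors' deposited table.

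Of the 98 regions that fell with TET-CD, 9 differed from Aza, 6 of them lower in Aza. The neural and developmental factor genes INSM1 (-0.22 with TET-CD and -0.67 with Aza), ZNF703 (-0.32 and -0.69), ZIC5 (-0.24 and -0.54) and HES1 (-0.30 and -0.56), the BMP antagonist gene NOG (-0.46 and -0.93) and PIM3 (-0.27 and -0.50) had the lower value in Aza in the authors' deposited table. JUND (-0.28 and 0.02), LHFPL4 (-0.34 and -0.05) and YDJC (-0.25 and -0.03) had the lower value with TET-CD in the authors' deposited table. Both treatments were fitted against the same untreated libraries, so the values are set side by side and only the direct comparison tests their difference. For regions picked by their change with TET-CD, the TET-CD libraries are used in both steps, which can tilt the counts.

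On the opposite strand, upstream of the same kind of start site, no region was called. Of 2882 divergent elongation regions 0 (0%) were called in the deposited DESeq2-type table, where the smallest adjusted p was 0.56, and 61 had an unadjusted p below 0.05, 29 higher and 32 lower. Their median level was 7.77 and their median standard error 0.65, beside median sense calls of 0.48 and -0.39. What size of change could be detected in single divergent regions was not tested.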

How the data were processed

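PRO-seq, PRO-cap and total RNA of HEK293 and U2OS cells were read from tables of the authors' comparisons, with 3 libraries a group per the labels. The submitters' processing notes name Trim Galore 0.4.3, STAR 2.4.2, bedtools 2.20.1, R 3.5.1 and DESeq2 1.22.1 without a role, on hg19 with galGal5 for the spike-in; how regions were drawn, reads counted and the spike-in used is not given in the sources used here. Among the deposited columns, baseMean is a signal value, a normalized count averaged over libraries per the file headers, identical in the 3 comparisons of a nascent table and so taken as a mean over all of them. Fold changes and standard errors were deposited on the log2 scale; in total RNA they are shrunken, since fold over error does not give the deposited p. The p-value columns deposited hold raw and adjusted values. The score column deposited in nascent tables equals the fold change over its standard error in every region, and the adjusted p equals a Benjamini-Hochberg adjustment over all 3888 rows. The 3 columns named as outlier marks were left out, as no source used here explains them.

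No table holds a value per sample, so depth per sample is unknown, nothing was refitted, and p-values measure only the spread between these libraries, which may be technical. A call means a deposited adjusted p under 0.05. Where a symbol had several regions, counts of genes kept the one with the highest mean level. Elongation regions were paired with the initiation region ending 51 bases upstream, and the difference of the log2 changes was tested by z over the root of summed squared standard errors, taken as independent, and adjusted over 3860 pairs. The code for that test was checked on simulated data. Genes were joined to total RNA by symbol. Promoter sequences are RefSeq's, on GRCh38.p14. Python 3.11.15 with numpy 2.4.6, pandas 2.3.3 and scipy 1.17.1 was used.

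Genes named are, among calls at or above the median level with no clone name, the 12 highest and 12 lowest; the 5 highest and 5 lowest below it; the 5 smallest adjusted p each way; up to 4 members of each list; the 6 largest differences each way; the 4 highest and 4 lowest total RNA calls; and TET1 and VPS9D1, which have no region. Members of families, segments and Aza comparisons were named after their values were seen, as were BCOR, cell markers, list members past 4 (CCNT1, NELFB, DNMT3A, MBD2), further differences (HES1, MSX1, INSM1) and further total RNA calls (GSTP1, NDRG1, ZCCHC12 and those among the 15); alternatives were not run gene by gene for these. The members and lists were chosen with earlier results of these data known. Some of the genes that the rule names are given only in counts. Alternatives were other thresholds, a level filter, centring on the median, all rows kept and leaving out segments.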

Additional observations from a re-analysis of the deposited data

How the results depend on the processing

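No paired analysis was possible because the deposited tables hold no values per sample; for the same reason leaving out replicates, a replicate block and edgeR were not run. At an adjusted p below 0.01 the elongation calls, 1 region per symbol, were 121 (74 higher, 47 lower) in place of 210 (129 and 81), and at 0.1 the lower calls were 123. With regions at or above the median level alone they were 111 (61 and 50), from fewer regions tested. Centring on the median gave 126 and 87, and leaving out segments between start sites, chosen after seeing the data, gave 128 and 72. Differences between elongation and initiation numbered 7 at 0.01 (4 higher, 3 lower), 54 at 0.1 (30 and 24) and, with a level filter in both tables, 42 (25 and 17), in place of 31 (16 and 15). Differences from Aza numbered 70 at 0.01 and 199 at 0.1, in place of 129. The divergent count was 0 throughout. The median change of all regions was -0.01 with the level filter and with regions weighted by inverse squared standard error. All 124 regions named by the rule kept direction and side of the threshold when centred. Centring subtracted only 0.0039 from each change, against a median standard error of 0.10, so it could hardly move a region. The 74 that the level filter keeps stayed on their side of the threshold when adjusted again. That filter leaves each change as it was, so it could not test direction.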
